A study of Mus musculus with 18 samples.

Results

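The genes examined here are 42 genes of the liver's extracellular matrix and of the stellate cells that make much of it: collagens, the proteins that bind and cross-link them, the enzymes that cut them and their inhibitors, and markers of activated stellate cells. They were taken as a fixed list of symbols, and each gene was read from the brightest probe set that the array's annotation assigns to it alone. Of the 42 genes, 40 had such a probe set and 39 passed the filter on dim values, out of 14694 genes tested in the whole series. Mfap4, a microfibril protein, was the gene left out by the filter, with intensities between 0.6 and 2.1 on the 18 arrays. Fbn1 and Loxl2 were not analysed here.

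Liver RNA of C57BL/6 mice was hybridised to 18 Affymetrix expression arrays, 3 for each of 6 groups. Mice carrying the AIM gene (AIM+/+, called WT) and mice without it (AIM-/-, called AIM-KO) were compared on normal chow, with 0 weeks of high-fat diet (HFD), and after 12 or 20 weeks of HFD. AIM, the apoptosis inhibitor of macrophage, is a protein secreted by macrophages and encoded by Cd5l, whose intensity was 702.6 to 1926.8 on the 9 WT arrays and 4 to 23.5 on the 9 AIM-KO arrays. The labels call the arrays of a group biological replicates and name no animals, so p-values measure the spread between these arrays. Ages are not given, and the weeks of feeding cannot be told apart from age.

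Values are MAS5 intensities on a linear scale, each array scaled by the authors to the same trimmed mean. Differences are given on the log2(intensity + 3.3) scale with their standard error (SE) or 95% interval, which understates the change of dim genes, and a gene is called when its adjusted p from limma over all 14694 genes is under 0.05. Before any result, 4 arrays stood apart. WT replicate 2 at 20 weeks and all 3 AIM-KO arrays at 20 weeks read 2921.6 to 3049.7 for Xist, the RNA of the inactive X chromosome in females, against 7.8 to 26.2 on the other 14 arrays. Their readings of the Y-linked gene Eif2s3y were 3.9 to 7.3, against 498.4 to 675.1 elsewhere. At 20 weeks AIM-KO is therefore a group of high-Xist arrays only, so its difference from chow, from 12 weeks and, apart from the 1 such WT array, from WT cannot be told apart from a difference of sex. Values of single genes with a term for these arrays are given for members of the list above only, in the summaries of each comparison. Results of all other genes in AIM-KO at 20 weeks are given without that term. With it, 1.34% of all genes were called in AIM-KO at 20 weeks against chow, and 6.96% without it. Between 20 and 12 weeks in AIM-KO, 0.034% were called with it and 3.44% without it. The ratio of the 3 prime to the 5 prime actin control, a measure of RNA length, was 2.54 to 4.22 on the WT arrays at 20 weeks and 2.25 to 3.79 on the rest. With that ratio as a term, no member was called between the genotypes at 20 weeks, where Col3a1 differed by -1.21 (adjusted p = 0.409) and Ccdc80 by -0.64 (adjusted p = 0.41), against -1.31 and -0.79 without it.

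In a healthy liver, hepatic stellate cells lie between the hepatocytes and the sinusoids and store vitamin A. After injury they become contractile cells that express smooth muscle actin and secrete fibrillar collagens, under signals that include TGF-beta and PDGF. The matrix that collects depends both on its synthesis and on the balance between metalloproteinases, which cut collagen, and tissue inhibitors of metalloproteinases (TIMPs). In bulk liver RNA, fewer cells of a type and less RNA per cell cannot be told apart.

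The promoter windows of 5 members with a RefSeq entry are shown, chosen after their values were seen, as examples of type I and III collagen, a decorin-binding protein, a filament protein and a collagenase that rose on HFD. RefSeq start sites of assembly GRCm38.p6 were available for 26 of the 39 tested members, and the 200 bases before each start were searched on both strands. Capitals mark TATAAA (the TATA box), CCAAT (the box named after it), GGGCGG (the GC box) or TGAGTCA (the AP-1 site), or their reverse complements. The Col1a2 window lies at chr6:4505418-4505617, Col3a1 at chr1:45311338-45311537, Dpt at chr1:164796463-164796662, Vim at chr2:13574111-13574310 and Mmp13 at chr9:7272314-7272513, all on the plus strand and written 5′ to 3′.
Col1a2: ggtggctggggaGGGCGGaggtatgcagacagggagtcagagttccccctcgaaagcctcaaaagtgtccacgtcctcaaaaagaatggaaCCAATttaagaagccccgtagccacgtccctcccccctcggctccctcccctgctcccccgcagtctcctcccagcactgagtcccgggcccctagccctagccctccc
Col3a1: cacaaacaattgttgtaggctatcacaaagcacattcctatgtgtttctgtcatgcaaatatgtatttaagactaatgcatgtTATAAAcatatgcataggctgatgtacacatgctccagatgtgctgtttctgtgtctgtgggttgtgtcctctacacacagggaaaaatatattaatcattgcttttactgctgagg
Dpt: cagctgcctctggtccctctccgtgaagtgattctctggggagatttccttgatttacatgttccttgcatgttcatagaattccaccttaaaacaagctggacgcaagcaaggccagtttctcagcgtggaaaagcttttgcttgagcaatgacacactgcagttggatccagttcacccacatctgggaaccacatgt
Vim: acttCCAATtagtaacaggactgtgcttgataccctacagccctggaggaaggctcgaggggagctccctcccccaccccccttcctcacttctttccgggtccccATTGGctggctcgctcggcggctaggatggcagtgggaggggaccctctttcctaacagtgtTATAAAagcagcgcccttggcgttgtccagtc
Mmp13: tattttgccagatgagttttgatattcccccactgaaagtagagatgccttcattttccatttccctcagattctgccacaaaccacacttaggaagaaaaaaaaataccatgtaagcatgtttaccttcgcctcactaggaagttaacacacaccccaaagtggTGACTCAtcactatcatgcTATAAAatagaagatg
TATAAA was in 4 of the 26 windows (15.4%), those of Col3a1, Postn, Mmp13 and Vim, and in 11.7% of the windows of all 27025 genes with an entry. CCAAT was in 7 (26.9%, against 32.7% of all genes), and GGGCGG in 14 (53.8%, against 33.7%). TGAGTCA was in the windows of Col6a1 and Mmp13, 7.69% of the members and 4.25% of all genes. In the Mmp13 window it began 35 bases before the start site, on the minus strand, with TATAAA 16 bases before the start. The Dpt window held none of these letters. Col4a1 and Col4a2, 2 chains of 1 collagen, start 21 bases apart on opposite strands of chromosome 8. These matches describe letters in the windows and no binding was measured.

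On HFD 29 of the 39 members rose in at least 1 of the 4 comparisons with chow, as did 15% of all genes. At 12 weeks 17 of the 39 members were called higher than chow in WT, by 0.49 to 2.94, while 3.52% of all genes were called higher. At 20 weeks 25 were higher in WT, by 0.82 to 5.18 (8.72% of all genes), and Col18a1 was lower (5.77%). In AIM-KO 26 were higher at 12 weeks, by 0.61 to 4.52 (11.4%), and 21 at 20 weeks, by 0.50 to 2.93 (4.29%), with none lower at either time (6.78% and 2.67% of all genes). The median change over the 39 members was 0.59 in WT at 12 weeks, 1.19 in WT at 20 weeks, 0.88 in AIM-KO at 12 weeks and 0.72 in AIM-KO at 20 weeks, and that over all genes lay between -0.01 and 0.04. The comparisons within a genotype share their chow arrays.

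In either direction, 5.14%, 14.5%, 18.1% and 6.96% of all genes were called in these 4 comparisons. Every HFD array lay above every chow array for 24 members in WT at 12 weeks (12.6% of all genes), 28 in WT at 20 weeks (15.4%), 27 in AIM-KO at 12 weeks (20.4%) and 24 in AIM-KO at 20 weeks (13.5%). Every HFD array lay below for 2 members (11.3% of all genes), 1 (13.7%), 1 (14.4%) and 0 (10.4%) in the same order.

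A group of 15 members were called higher in all 4 comparisons with chow: Acta2, Bgn, Ccdc80, Col14a1, Col1a2, Col3a1, Col5a2, Col6a3, Dcn, Dpt, Fstl1, Sparc, Tgfbi, Timp2 and Vim. That is 15 of 39, and 1.57% of all genes were so called. With the probe sets of a gene averaged, Dcn and Sparc were called in none of the 4. Bgn, Ccdc80, Col5a2 and Timp2 were then not called in all 4. Another 10 members, Col15a1, Col18a1, Col6a2, Des, Eln, Fn1, Lox, Loxl1, Mmp2 and Tgfb1, were called higher in none. With a term for the high-Xist arrays, 6 of the members were called in AIM-KO at 20 weeks: Lum (2.02, adjusted p = 0.0219), Col1a2 (1.62), Col14a1 (1.02), Ccdc80 (1.23), Acta2 (2.00) and Col3a1 (1.99). Of the 21 called without it, 16 no longer passed, and the median over the members was 0.76. Those 16 were Bgn, Col4a1, Col4a2, Col5a1, Col5a2, Col6a3, Dcn, Dpt, Fstl1, Pdgfra, Pdgfrb, Sparc, Tgfbi, Thbs1, Timp2 and Vim. Of all genes 1.34% were called in AIM-KO at 20 weeks with that term, against 6.96% without it. The SE of Col3a1 was 0.45 with that term and 0.25 without it. In WT at 20 weeks, the fit without the high-Xist array called 24 members higher and 2, Col18a1 and Fn1, lower. The call of Pdgfra was lost. That fit called 16.8% of all genes, against 14.5% with all arrays.

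**Figure D1:**
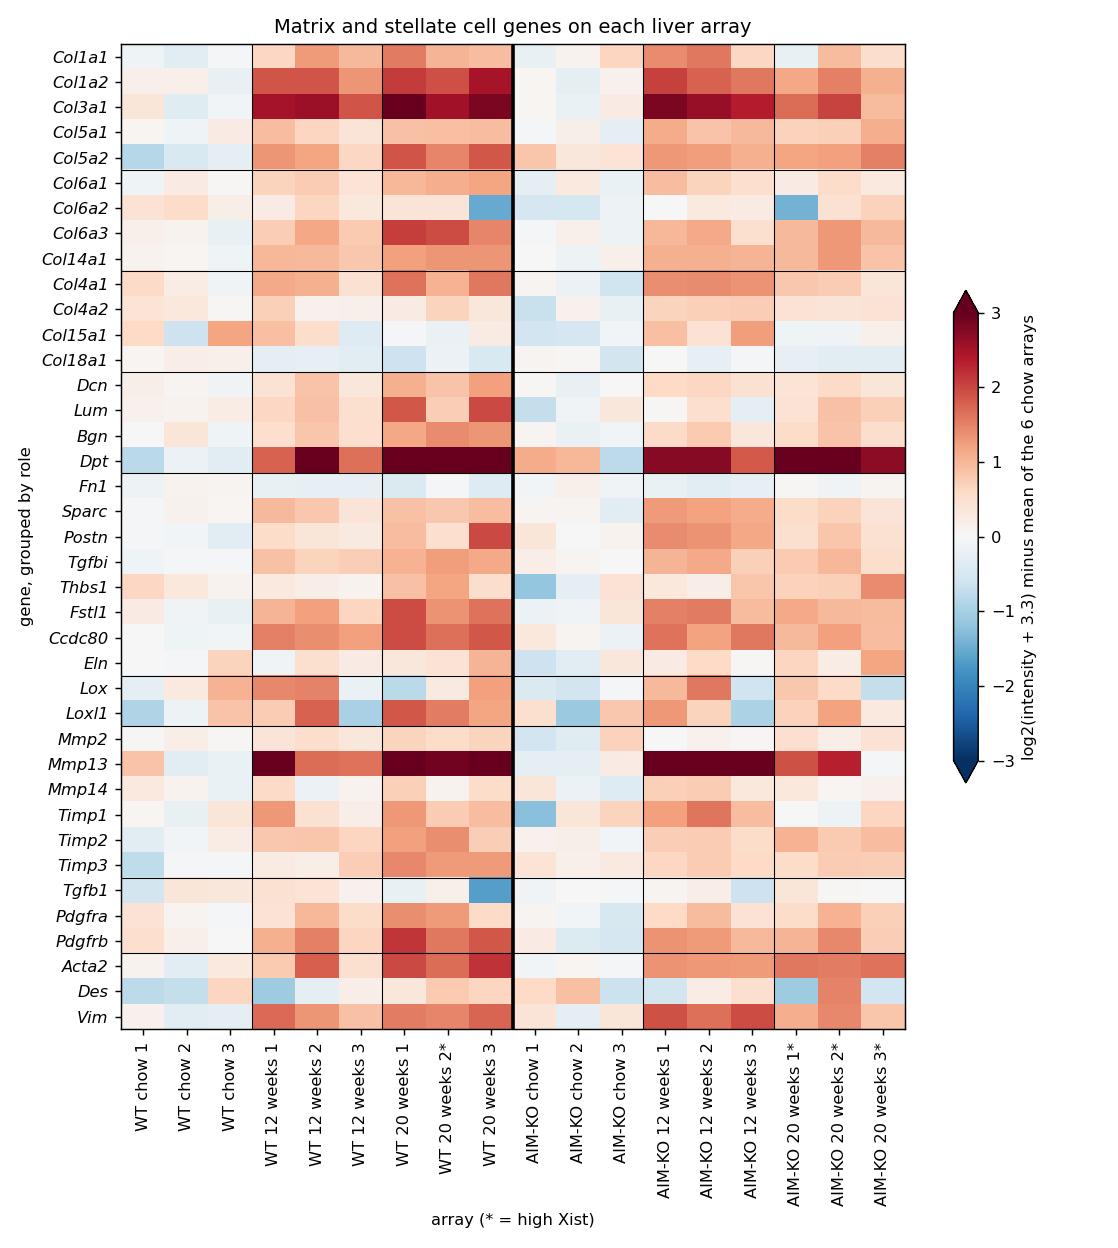
Log2(intensity + 3.3) of the 39 tested genes (vertical axis, grouped by role) on each of the 18 arrays (horizontal axis), minus the gene's mean over the 6 chow arrays, with an asterisk on the 4 high-Xist arrays. The HFD arrays of both genotypes are red for most genes, and the change of Fn1, Mmp2 and Tgfb1 from chow was not called in any comparison.

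All 5 fibrillar collagen genes were called higher in WT at 20 weeks and in AIM-KO at 12 weeks, 3 of 5 in WT at 12 weeks and 4 of 5 in AIM-KO at 20 weeks. Col3a1 (probe set 1427883_a_at) encodes the chain of type III collagen, which forms fine networks in the liver. On chow its intensities were 158.4, 94.1 and 114.7 in WT and 126.7, 105.8 and 145.0 in AIM-KO. After 12 weeks they were 699.8, 739.9 and 462.3 in WT and 891.4, 770.3 and 635.6 in AIM-KO, and after 20 weeks 1149.0, 720.6 and 881.2 in WT and 396.0, 506.0 and 237.1 in AIM-KO. Each HFD array lay above each chow array, and the lowest values after HFD, 237.1 and 396.0, were on AIM-KO arrays at 20 weeks. Against chow, Col3a1 rose by 2.34 ± 0.25 (SE, n = 3 and 3 arrays; adjusted p = 2.7e-05) at 12 weeks and 2.88 ± 0.25 (adjusted p = 8.7e-07) at 20 weeks in WT, and by 2.57 ± 0.25 (adjusted p = 3.4e-06) and 1.51 ± 0.25 (adjusted p = 0.0011) in AIM-KO.

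The 2 chains of type I collagen, the main fibre of scar tissue, were read from Col1a2 (1450857_a_at) and Col1a1 (1455494_at). Col1a2 read 79.4, 78.9 and 60.6 in WT and 74.3, 57.4 and 78.4 in AIM-KO on chow. At 12 weeks it read 269.8, 271.2 and 183.1 in WT and 302.1, 249.5 and 220.6 in AIM-KO, and at 20 weeks 314.9, 282.4 and 411.1 in WT and 161.7, 209.1 and 153.3 in AIM-KO. All 12 HFD arrays were above all 6 chow arrays, and the 3 AIM-KO arrays at 20 weeks were below the 3 WT arrays of that time. Col1a2 rose by 1.67 ± 0.19 (adjusted p = 4.7e-05) and 2.15 ± 0.19 (adjusted p = 8.8e-07) in WT, and by 1.83 ± 0.19 (adjusted p = 5.7e-06) and 1.28 ± 0.19 (adjusted p = 3.9e-04) in AIM-KO, at 12 and 20 weeks.

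The Col1a1 probe set was dim. Its values were 9.4, 7.8 and 9.9 in WT and 8.6, 11.5 and 18.2 in AIM-KO on chow, and 18.1, 30 and 23.9 in WT and 33.7, 38 and 18.1 in AIM-KO at 12 weeks. Col1a1 at 20 weeks read 37.5, 24.6 and 22.8 in WT and 8.5, 23.6 and 16.8 in AIM-KO. In WT the HFD arrays lay above the chow arrays at both times, whereas in AIM-KO the arrays of chow and of each HFD time overlapped. Col1a1 rose in WT at 20 weeks (1.33 ± 0.34, adjusted p = 0.012) and in AIM-KO at 12 weeks (1.04 ± 0.34, adjusted p = 0.04). Its change in WT at 12 weeks was 1.13 (95% interval 0.42 to 1.84, adjusted p = 0.062) and in AIM-KO at 20 weeks 0.25 (-0.46 to 0.96). The call in WT was lost without its replicate 1 (1.13, adjusted p = 0.0688), and that in AIM-KO without replicates 1 or 2 of either group (0.84 at the lowest).

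Type V collagen, which sets the width of type I fibres, was read from Col5a1 and Col5a2. Col5a2 (1422437_at) had chow intensities of 8.3, 12.1 and 14.3 in WT and 34, 23.4 and 24.6 in AIM-KO. It read 49.4, 44.8 and 29.3 in WT and 49, 46.8 and 40.8 in AIM-KO at 12 weeks. Col5a2 at 20 weeks read 74.4, 55.2 and 72.8 in WT and 44.3, 46.1 and 56.4 in AIM-KO. On chow every AIM-KO array was above every WT array, and on HFD the groups of both genotypes were above their own chow arrays. Col5a2 rose by 1.57 ± 0.22 (adjusted p = 3.3e-04) and 2.26 ± 0.22 (adjusted p = 3e-06) in WT and by 0.69 ± 0.22 (adjusted p = 0.04) and 0.78 ± 0.22 (adjusted p = 0.042) in AIM-KO. In AIM-KO neither rise was called without 1 of 5 arrays: at 12 weeks chow replicates 2 or 3 or any array of that time (0.59 to 0.76), at 20 weeks chow replicates 2 or 3 or any array of that time (0.68 to 0.84). Col5a1 rose in WT at 20 weeks (0.85 ± 0.18) and in AIM-KO at 12 (1.03 ± 0.18) and 20 weeks (0.89 ± 0.18), and its change in WT at 12 weeks was 0.59 (0.21 to 0.97, adjusted p = 0.067).

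**Figure D2:**
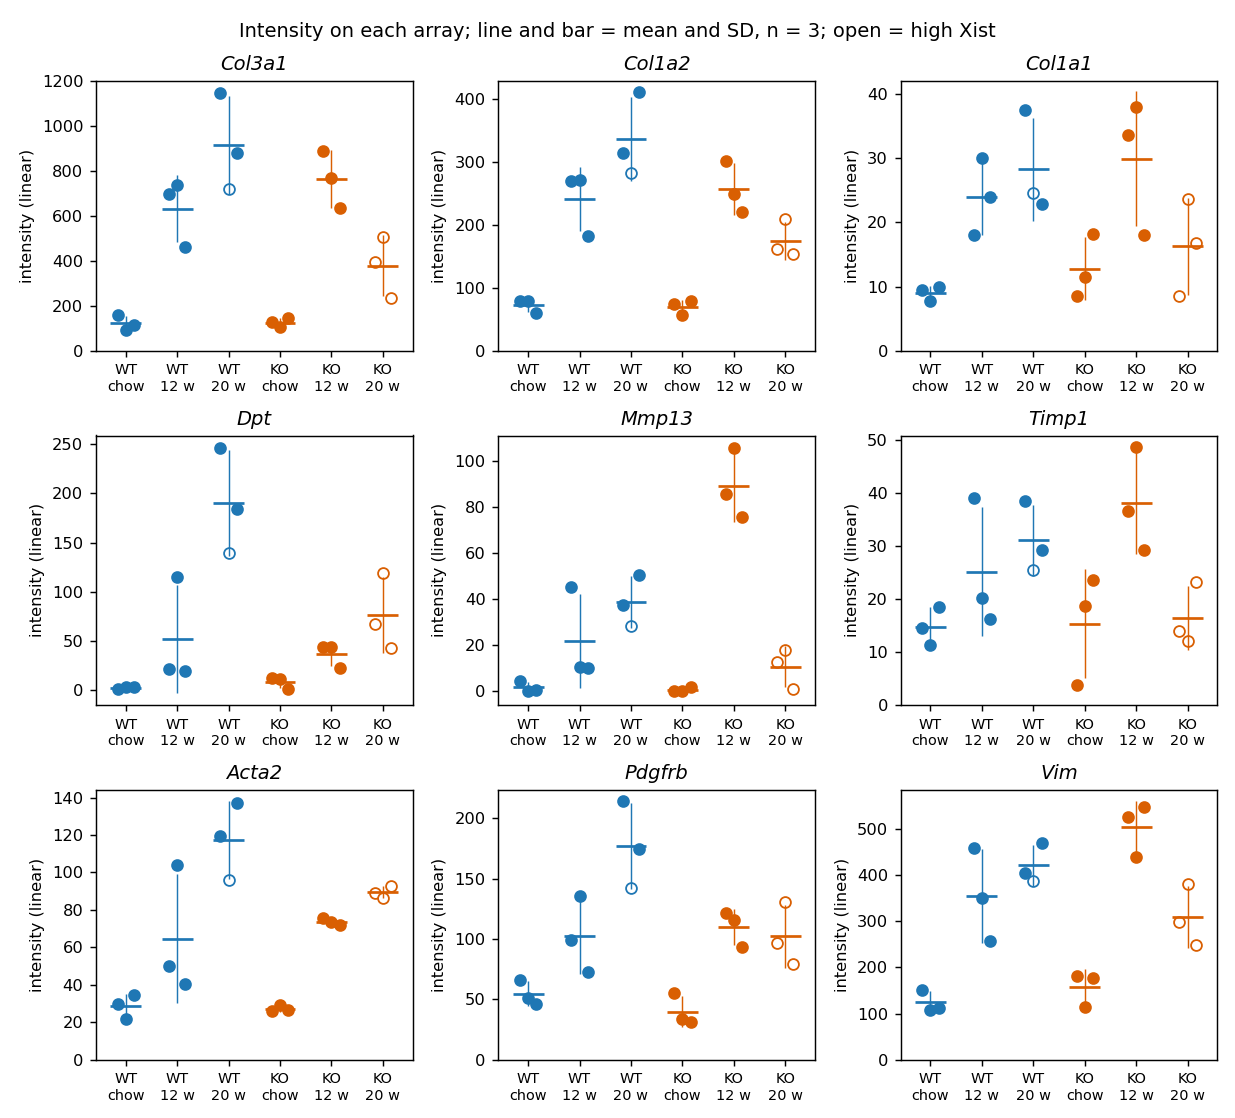
Intensity (linear, vertical axis from 0) of 9 genes on each array, by group (horizontal axis); lines and bars are the mean and SD of 3 arrays, and open circles are high-Xist arrays. Col3a1 read 94.1 to 158.4 on the chow arrays, up to 1149.0 in WT at 20 weeks and at most 506.0 in AIM-KO at 20 weeks.

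Type VI collagen forms beaded filaments around cells, and type XIV binds to fibres of type I. Of these 4 genes 2 were called higher in WT at 12 weeks, 3 in WT at 20 weeks, 3 in AIM-KO at 12 weeks and 2 in AIM-KO at 20 weeks. Col6a3 (1424131_at) read 43.8, 42.4 and 33.2 in WT and 38.4, 43.7 and 34.8 in AIM-KO on chow. At 12 weeks the values were 67.6, 91.9 and 69.5 in WT and 81, 90 and 56.4 in AIM-KO, and at 20 weeks 176.1, 162.3 and 114.3 in WT and 80.4, 101.1 and 79.9 in AIM-KO. Chow and HFD arrays did not overlap in either genotype, and all WT arrays at 20 weeks were above all other arrays. Col6a3 rose by 0.88 ± 0.20 (adjusted p = 0.014) and 1.82 ± 0.20 (adjusted p = 9.2e-06) in WT and by 0.88 ± 0.20 (adjusted p = 0.0046) and 1.09 ± 0.20 (adjusted p = 0.0024) in AIM-KO. The call in WT at 12 weeks was lost without chow replicate 3 (0.77) or without replicate 2 of that time (0.75).

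Col14a1, with little spread within groups (SD 0.13 on the log2 scale), rose by 0.92 ± 0.12 and 1.29 ± 0.12 in WT and by 1.06 ± 0.12 at both times in AIM-KO. Col6a1 rose in WT at 20 weeks (1.03 ± 0.20, adjusted p = 0.0018) and in AIM-KO at 12 weeks (0.75 ± 0.20, adjusted p = 0.013), the last lost without replicate 1 of either group (0.65 and 0.63). Col6a2 was called in no comparison on its brightest probe set, whose name ends in x_at, the mark for probes that may also bind other transcripts, and which read 7.1 and 7.9 on 1 WT and 1 AIM-KO array at 20 weeks. The other probe set of Col6a2 changed by 1.48 ± 0.47 in WT at 20 weeks (adjusted p = 0.0485 in the fit over probe sets), where the first gave -0.64 ± 0.47.

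The collagens of the basement membrane and its surroundings were less uniform. Col4a1 (1452035_at) and its partner chain Col4a2 build the type IV network beneath endothelium, which liver sinusoids largely lack in health. Col4a1 read 118.3, 91.4 and 72.8 in WT and 82.9, 69 and 50.1 in AIM-KO on chow. It read 174.7, 166.7 and 108.4 in WT and 211.3, 215.4 and 204.1 in AIM-KO at 12 weeks. Col4a1 at 20 weeks read 249.7, 163.6 and 240.8 in WT and 139.1, 133.7 and 102.2 in AIM-KO. Only WT at 12 weeks overlapped its chow arrays, and in AIM-KO the 12-week arrays were above those of 20 weeks. Col4a1 rose in WT at 20 weeks (1.19 ± 0.22, adjusted p = 0.0013), in AIM-KO at 12 weeks (1.62 ± 0.22, adjusted p = 6.8e-05) and in AIM-KO at 20 weeks (0.88 ± 0.22, adjusted p = 0.021), and changed by 0.65 in WT at 12 weeks (0.19 to 1.11, adjusted p = 0.1). The 20-week call in AIM-KO was lost without chow replicate 3 or replicates 1 or 2 of that time (0.69 to 0.82).

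Col4a2 rose in AIM-KO at 12 (0.96 ± 0.19, adjusted p = 0.0019) and 20 weeks (0.67 ± 0.19, adjusted p = 0.043), and in WT its changes were 0.09 (-0.32 to 0.49) and 0.17 (-0.24 to 0.57). The difference between the genotypes in its 12-week change was 0.87 ± 0.27 and was not called (adjusted p = 0.36). The 20-week call in AIM-KO was lost without any of that group's arrays or chow replicates 1 or 3 (0.47 to 0.69). Col18a1, which releases endostatin and is made by hepatocytes, fell by 0.56 ± 0.14 in WT at 20 weeks (adjusted p = 0.011), from 1356.0, 1487.6 and 1442.6 on chow to 841.5, 1148.6 and 938.9, and the call was lost without replicate 1 of the 20-week arrays (-0.46, adjusted p = 0.067). In AIM-KO its changes were 0.05 (-0.25 to 0.34) and -0.16 (-0.45 to 0.14). Col15a1 was dim, at 1.8 to 15.3 over all arrays, and was not called.

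Among the small leucine-rich proteoglycans, which coat collagen fibrils, and dermatopontin, 3 of 4 genes were called in WT at 12 weeks, all 4 in WT at 20 weeks and 3 at each time in AIM-KO. Dpt (1418511_at) encodes dermatopontin, which binds decorin and speeds fibril formation. It read 0.7, 2.9 and 2.3 in WT and 12, 10.7 and 0.8 in AIM-KO on chow, and 20.8, 114.8 and 18.7 in WT and 43.5, 43.8 and 21.9 in AIM-KO at 12 weeks. Dpt at 20 weeks read 246.6, 139 and 184.5 in WT and 67.4, 118.5 and 42.1 in AIM-KO. The chow arrays were near the bottom of the array's range, all HFD arrays were above them, and WT replicate 2 at 12 weeks stood far above its group. Dpt rose by 2.94 ± 0.57 (adjusted p = 0.0044) and 5.18 ± 0.57 (adjusted p = 8.5e-06) in WT, and by 1.99 ± 0.57 (adjusted p = 0.019) and 2.93 ± 0.57 (adjusted p = 0.0034) in AIM-KO. Since the WT chow arrays read below the pseudocount of 3.3, the size of the WT changes depends on it. The 12-week call in AIM-KO was lost without chow replicate 3 (1.38) or without replicate 1 or 2 of that time (1.85 and 1.84).

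Lum (1423607_at), which encodes lumican, read 107.1, 105.1 and 114.6 in WT and 57.9, 90.4 and 125.1 in AIM-KO on chow, and 152.4, 182.3 and 136.9 in WT and 99.8, 139.7 and 79.7 in AIM-KO at 12 weeks. Lum at 20 weeks read 363.3, 163.7 and 394.5 in WT and 131.7, 181.4 and 161.4 in AIM-KO. WT at 20 weeks held 2 high arrays and its high-Xist array, which lay within the range of AIM-KO. Lum rose in WT at 20 weeks (1.37 ± 0.29, adjusted p = 0.0035), and its other changes were 0.51 (-0.10 to 1.11) in WT at 12 weeks, 0.24 (-0.36 to 0.85) in AIM-KO at 12 weeks and 0.83 (0.22 to 1.43, adjusted p = 0.098) in AIM-KO at 20 weeks. Dcn (decorin) and Bgn (biglycan) were called higher in all 4 comparisons, Dcn by 0.49, 0.99, 0.61 and 0.50 and Bgn by 0.55, 1.24, 0.64 and 0.72 for WT at 12 and 20 and AIM-KO at 12 and 20 weeks. At 12 weeks in WT, the call of Dcn was lost without chow replicates 2 or 3 or replicates 1 or 2 of that time (0.33 to 0.55), and that of Bgn without any array but chow replicate 2 (0.44 to 0.61). In AIM-KO at 20 weeks the call of Dcn was lost without chow replicate 2 or replicates 1 or 2 of that time (0.42 to 0.52). With the probe sets of a gene averaged, Dcn was called in none of the 4 comparisons and Bgn was not called in WT at 12 weeks.

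**Figure D3:**
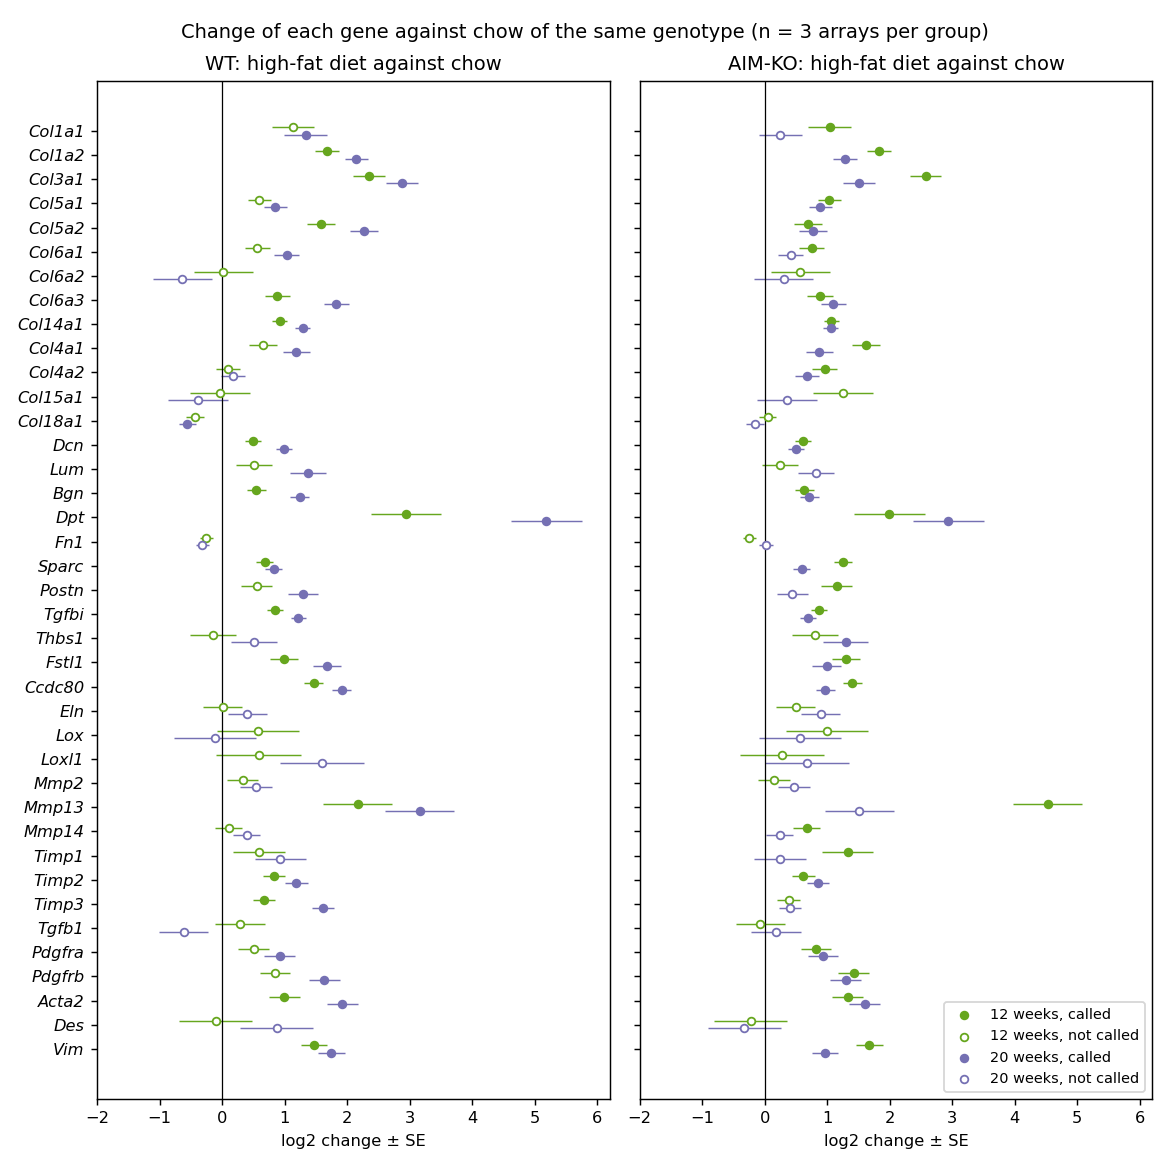
Log2 change from chow (horizontal axis, mean ± SE, 3 arrays per group) of each of the 39 genes (vertical axis) in WT (left) and AIM-KO (right), at 12 and 20 weeks, with filled points for called changes. In WT 33 of the 39 points of 20 weeks lie to the right of those of 12 weeks, and in AIM-KO 15 of 39.

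The matrix glycoproteins split into a group that rose and a group that was not called. Ccdc80 (1424186_at), a secreted protein of the fibroblast matrix, read 68, 62.8 and 65 in WT and 87, 73 and 61.1 in AIM-KO on chow. It read 203.9, 188 and 166.8 in WT and 220.3, 164.7 and 212.8 in AIM-KO at 12 weeks. Ccdc80 at 20 weeks read 279.7, 224.8 and 261.4 in WT and 138.4, 167.3 and 134.1 in AIM-KO. The chow arrays were tight and below all HFD arrays, and at 20 weeks WT and AIM-KO did not overlap. Ccdc80 rose by 1.46 ± 0.15 (adjusted p = 1.5e-05) and 1.91 ± 0.15 (adjusted p = 3e-07) in WT and by 1.40 ± 0.15 (adjusted p = 7.1e-06) and 0.97 ± 0.15 (adjusted p = 5.5e-04) in AIM-KO.

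Fstl1 (1448259_at), a secreted relative of follistatin, read 28, 21.2 and 19.4 in WT and 20.1, 21.4 and 30.6 in AIM-KO on chow, and 50, 59 and 38.1 in WT and 71.8, 74.4 and 47.5 in AIM-KO at 12 weeks. Fstl1 at 20 weeks read 98.6, 64.5 and 77.8 in WT and 55.2, 48.2 and 47.6 in AIM-KO. No HFD array was as low as the highest chow array. It rose by 0.99 ± 0.23 (adjusted p = 0.013) and 1.67 ± 0.23 (adjusted p = 7.5e-05) in WT and by 1.31 ± 0.23 (adjusted p = 5.4e-04) and 0.99 ± 0.23 (adjusted p = 0.011) in AIM-KO. The 12-week call in WT was lost in 4 of 6 fits without 1 array, those without chow replicates 2 or 3 or replicates 1 or 2 of that time (0.86 to 0.97), and the 20-week call in AIM-KO without its replicate 1 (0.93). Sparc, a collagen-binding protein of matrix-making cells, and Tgfbi, which links collagen to integrins, were called higher in all 4 comparisons, Sparc by 0.68 and 0.82 in WT and 1.25 and 0.59 in AIM-KO, and Tgfbi by 0.84 and 1.22 in WT and 0.87 and 0.69 in AIM-KO. The Sparc call was lost in WT at 12 weeks without replicate 1 of that time (0.55), and in AIM-KO at 20 weeks without chow replicate 3 or replicates 1 or 2 of that time (0.46 to 0.59). With the probe sets of a gene averaged, Sparc was called in none of the 4 comparisons.

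Postn, which encodes periostin, rose in WT at 20 weeks (1.29 ± 0.25, adjusted p = 0.0016) and in AIM-KO at 12 weeks (1.15 ± 0.25, adjusted p = 0.003). The WT arrays at 20 weeks read 206.2, 154.9 and 433.4, so that 1 array lay far above its group. Thbs1, an activator of latent TGF-beta, rose in AIM-KO at 20 weeks (1.29 ± 0.37, adjusted p = 0.039), from 2.1, 6.5 and 12.9 on chow to 16.3, 16.6 and 29. That call was lost in 5 of 6 fits without 1 array, all but that without AIM-KO chow replicate 3 (0.89 to 1.42). Fn1, fibronectin, is also secreted into plasma by hepatocytes and was not called: its changes were -0.25 (-0.48 to -0.03) and -0.32 (-0.54 to -0.09, adjusted p = 0.053) in WT and -0.25 (-0.47 to -0.02) and 0.02 (-0.20 to 0.24) in AIM-KO. Eln, the elastin gene, was not called either, with changes of 0.01 and 0.40 in WT and 0.50 and 0.89 in AIM-KO.

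The enzymes that cross-link collagen and elastin, Lox and Loxl1, were dim and scattered, with an SD within groups of 0.86 and 0.95. Neither was called, and their 95% intervals were wide, from -0.81 to 1.94 for Lox in WT at 12 weeks and from -0.83 to 1.99 for Loxl1 in the same comparison.

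Of the 6 proteases and inhibitors, 3 were called higher in WT at each time, 4 in AIM-KO at 12 weeks and 1 in AIM-KO at 20 weeks. Mmp13 (1417256_at) is the main interstitial collagenase of rodents. It read 4.4, 0.1 and 0.4 in WT and 0.2, 0.2 and 1.8 in AIM-KO on chow, and 45.3, 10.3 and 9.9 in WT and 85.5, 105.6 and 75.5 in AIM-KO at 12 weeks. Mmp13 at 20 weeks read 37.3, 28.4 and 50.4 in WT and 12.8, 18.1 and 0.9 in AIM-KO. The chow arrays were near or below the pseudocount, so the size of the changes depends on it. The 3 AIM-KO arrays at 12 weeks were the highest of the series, and 1 AIM-KO array at 20 weeks lay within the chow range. Mmp13 rose by 2.16 ± 0.55 (adjusted p = 0.027) and 3.16 ± 0.55 (adjusted p = 7.6e-04) in WT and by 4.52 ± 0.55 (adjusted p = 2.3e-05) in AIM-KO at 12 weeks, and its change in AIM-KO at 20 weeks was 1.51 (0.35 to 2.67, adjusted p = 0.11). The 12-week call in WT was lost without its replicate 1 (1.54, adjusted p = 0.178), without chow replicate 2 (1.95) and without chow replicate 3 (2.01).

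Timp1 (1460227_at), a TIMP that activated stellate cells secrete, read 14.5, 11.4 and 18.6 in WT and 3.9, 18.7 and 23.6 in AIM-KO on chow, and 39, 20.2 and 16.3 in WT and 36.6, 48.6 and 29.3 in AIM-KO at 12 weeks. Timp1 at 20 weeks read 38.5, 25.5 and 29.3 in WT and 14, 12.1 and 23.3 in AIM-KO. In WT the 20-week arrays lay above chow, and in AIM-KO the 12-week arrays did, while AIM-KO at 20 weeks overlapped chow. Timp1 rose in AIM-KO at 12 weeks (1.33 ± 0.41, adjusted p = 0.03), a call lost without AIM-KO chow replicate 1 (0.74) or without replicate 1 or 2 of that time (1.34 and 1.15). Its other changes were 0.59 (-0.27 to 1.45) and 0.93 (0.07 to 1.78) in WT and 0.24 (-0.61 to 1.10) in AIM-KO at 20 weeks.

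Timp3 (1419089_at), the TIMP that stays bound to the matrix, read 43.9, 73.8 and 75.2 in WT and 103.1, 86.1 and 93.1 in AIM-KO on chow, and 91.3, 88.4 and 129.4 in WT and 120.4, 131.7 and 118.2 in AIM-KO at 12 weeks. Timp3 at 20 weeks read 212.4, 191 and 189.9 in WT and 114, 131.5 and 130.9 in AIM-KO. The AIM-KO chow arrays were above the WT chow arrays, and WT at 20 weeks was above every other group. Timp3 rose in WT by 0.67 ± 0.18 (adjusted p = 0.035) and 1.61 ± 0.18 (adjusted p = 1.1e-05), and in AIM-KO its changes were 0.38 (0.00 to 0.76) and 0.40 (0.03 to 0.78). The 12-week call was lost without WT chow replicate 1 (0.43), or without replicate 1 (0.74) or 3 (0.50) of that time. Timp2, which rose in all 4 comparisons, changed by 0.83 and 1.19 in WT and 0.62 and 0.85 in AIM-KO, and its 12-week call in AIM-KO was lost without chow replicate 3 or replicates 1 or 2 of that time (0.54 to 0.59). Mmp14, a membrane-bound collagenase, rose in AIM-KO at 12 weeks (0.67 ± 0.22, adjusted p = 0.039), a call lost without chow replicates 2 or 3 or replicates 1 or 2 of that time (0.51 to 0.62), and the gelatinase gene Mmp2 was not called, with changes of 0.15 to 0.54.

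Tgfb1 (1445360_at), the gene of the ligand TGF-beta 1, was dim. It read 8.6, 19.3 and 18.7 in WT and 13, 14.1 and 13.9 in AIM-KO on chow, and 20.8, 19.9 and 15.8 in WT and 15.3, 16.9 and 8 in AIM-KO at 12 weeks. Tgfb1 at 20 weeks read 11.8, 16.1 and 2.3 in WT and 19.3, 14.7 and 14.1 in AIM-KO. The 20-week AIM-KO arrays were at or just above the AIM-KO chow arrays, and each other HFD group overlapped the chow arrays of its genotype. Its changes were 0.28 (-0.54 to 1.11) and -0.62 (-1.45 to 0.21) in WT and -0.07 (-0.90 to 0.76) and 0.18 (-0.65 to 1.01) in AIM-KO. Its other probe set gave 0.57 ± 0.52 in WT at 20 weeks, the opposite sign, so these probe sets give no direction for Tgfb1.

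Pdgfrb (1436970_a_at) encodes the PDGF receptor through which stellate cells are driven to divide. It read 66.2, 51.4 and 46.1 in WT and 55, 33.6 and 31.2 in AIM-KO on chow, and 99.3, 135.8 and 72.9 in WT and 121.8, 115.3 and 93 in AIM-KO at 12 weeks. Pdgfrb at 20 weeks read 214, 142.4 and 174.1 in WT and 96.5, 130.5 and 79.1 in AIM-KO. All HFD arrays were above all chow arrays. Pdgfrb rose in WT at 20 weeks (1.63 ± 0.25, adjusted p = 2.2e-04) and in AIM-KO at 12 (1.42 ± 0.25, adjusted p = 5.5e-04) and 20 weeks (1.30 ± 0.25, adjusted p = 0.003), and its change in WT at 12 weeks was 0.84 (0.33 to 1.36, adjusted p = 0.053). Pdgfra, the related receptor found on fibroblasts, rose in the same 3 comparisons by 0.92, 0.82 and 0.93. Each of these was lost without chow replicates 2 or 3, and also without replicates 1 or 2 (WT at 20 weeks and AIM-KO at 12 weeks) or 2 or 3 (AIM-KO at 20 weeks) of the HFD arrays, with changes of 0.65 to 0.98.

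Acta2 (1416454_s_at), smooth muscle actin and the usual mark of an activated stellate cell, read 29.9, 21.6 and 34.6 in WT and 26.2, 29.2 and 26.6 in AIM-KO on chow. It read 49.8, 104.1 and 40.2 in WT and 75.8, 73.6 and 71.8 in AIM-KO at 12 weeks. Acta2 at 20 weeks read 119.3, 95.8 and 137.2 in WT and 89, 86.3 and 92.8 in AIM-KO. Chow and HFD arrays did not overlap, and WT replicate 2 at 12 weeks stood above its group as it did for Dpt. Acta2 rose by 0.995 ± 0.25 (adjusted p = 0.024) and 1.92 ± 0.25 (adjusted p = 4.7e-05) in WT and by 1.33 ± 0.25 (adjusted p = 0.001) and 1.60 ± 0.25 (adjusted p = 5.5e-04) in AIM-KO, and the 12-week call in WT was lost without that array (0.61, adjusted p = 0.0829) or without WT chow replicate 2 (0.82, adjusted p = 0.122).

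Vim (1438118_x_at), the intermediate filament vimentin of mesenchymal cells and leukocytes, read 152.2, 108.2 and 112.9 in WT and 182.3, 114.8 and 177.9 in AIM-KO on chow, and 459.4, 350.5 and 256.7 in WT and 525.1, 440.3 and 548.6 in AIM-KO at 12 weeks. Vim at 20 weeks read 405.6, 387.2 and 470.5 in WT and 299.2, 381.8 and 249.1 in AIM-KO. Every HFD array was above every chow array. Vim rose by 1.47 ± 0.21 (adjusted p = 3.8e-04) and 1.74 ± 0.21 (adjusted p = 2.6e-05) in WT and by 1.68 ± 0.21 (adjusted p = 3.2e-05) and 0.96 ± 0.21 (adjusted p = 0.0088) in AIM-KO, the last lost without AIM-KO chow replicate 2 (0.75) or replicate 2 of that time (0.80). Des (1426731_at), desmin, the filament of quiescent rodent stellate cells and of muscle, read 5.5, 6 and 20.4 in WT and 19.6, 25 and 6.4 in AIM-KO on chow, and 3.9, 9.1 and 14.1 in WT and 7.1, 14.3 and 18.3 in AIM-KO at 12 weeks. Des at 20 weeks read 15.8, 22.8 and 20.6 in WT and 4, 39.4 and 6.9 in AIM-KO. Its groups overlapped and none of its changes was called, its interval in WT at 20 weeks being -0.35 to 2.10.

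Time on HFD was compared directly within each genotype. In WT none of the 39 members was called between 20 and 12 weeks with limma, and 0.0204% of all genes were. At an unadjusted p under 0.05, 18 members (46.2%) and 8.1% of all genes differed. The median over the members was 0.45, and that over all genes 0.00. Every 20-week array lay above every 12-week array for 15 members and below for 0, against 5.44% and 4.9% of all genes. Timp3 had the smallest p (0.94 ± 0.18, adjusted p = 0.1). In AIM-KO 3 members were called lower at 20 than at 12 weeks, and 2.12% of all genes were (3.44% in either direction). Every array of 20 weeks lay below every array of 12 weeks for 11 members (15.5% of all genes) and above for 4 (12.4%). Mmp13 fell by 3.01 ± 0.55 (adjusted p = 0.0072), Col3a1 fell by 1.06 ± 0.25 (adjusted p = 0.027) and Sparc fell by 0.66 ± 0.14 (adjusted p = 0.015), with a median over the members of -0.15. With the term for high Xist none of the 3 was called, at -2.46 (adjusted p = 0.575), -0.58 (adjusted p = 0.817) and -0.56 (adjusted p = 0.599). The calls of Col3a1 and Sparc were each lost without AIM-KO replicates 1 or 2 at 12 weeks or 1 or 3 at 20 weeks, which leaves 1 called member. Both calls were also lost with the probe sets of a gene averaged.

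The genotypes were then compared on each diet. On chow and at 12 weeks no member was called, where 0.0272% and 0.0749% of all genes were. At an unadjusted p under 0.05 there were 4 members on chow (10.3%, against 7.24% of all genes) and 5 at 12 weeks (12.8%, against 8.38%), shares near that background. The arrays did not overlap, with AIM-KO above WT, for 4 members on chow (4.86% of all genes) and 5 at 12 weeks (8.5%), and with AIM-KO below for 1 (6.63%) and 1 (7.5%). Of all genes, 0.0204% on chow and 0.034% at 12 weeks were called lower in AIM-KO. The smallest p on chow was that of Col5a2, higher in AIM-KO by 1.05 (0.58 to 1.52, adjusted p = 0.17). At 12 weeks it was that of Mmp13, higher in AIM-KO by 2.15 (0.99 to 3.31, adjusted p = 0.18), and the median over the members was 0.16.

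At 20 weeks Col3a1 was lower in AIM-KO by 1.31 and Ccdc80 by 0.79, the 2 members called, and 0.157% of all genes were. In full, the log2 differences were -1.31 ± 0.25 (adjusted p = 0.043) for Col3a1 and -0.79 ± 0.15 (adjusted p = 0.041) for Ccdc80. For 19 of the 39 members every AIM-KO array lay below every WT array, and for 8.76% of all genes. For none did every AIM-KO array lie above (6.98% of all genes). The 19 were Mmp13, Dpt, Col3a1, Col1a2, Timp1, Ccdc80, Pdgfrb, Col4a1, Col6a3, Col6a1, Bgn, Timp3, Fstl1, Dcn, Vim, Acta2, Tgfbi, Sparc and Mmp2. Next to the called members by p were Col1a2 (-0.93, -1.33 to -0.53, adjusted p = 0.057), Dcn (-0.61, -0.88 to -0.33, adjusted p = 0.063) and Bgn (-0.65, -0.97 to -0.34, adjusted p = 0.08). The median over the members was -0.45 and over all genes 0.00.

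Over the 39 members, the median difference from the mean WT chow array was 1.07 to 1.22 on the 3 WT arrays at 20 weeks and 0.50 to 0.86 on the AIM-KO arrays, so the groups did not overlap. At 12 weeks it was 0.40 to 0.76 in WT and 0.79 to 1.03 in AIM-KO, which did not overlap in the other direction, and no member was called there. The high-Xist WT array at 20 weeks had the lowest of the 3 WT values, 1.07, and a single such array cannot separate sex from genotype. With the term for high Xist neither Col3a1 (-0.99, adjusted p = 0.903) nor Ccdc80 (-0.61, adjusted p = 0.858) was called at 20 weeks. When the high-Xist WT array was left out, so that sex and genotype could not be told apart at all, 10 members were called: Ccdc80, Col3a1, Dcn, Col1a2, Lum, Col4a1, Postn, Bgn and Pdgfrb lower in AIM-KO and Fn1 higher (0.43). In that fit 6.45% of all genes were called, against 0.157% with all arrays. Without any other single array of either group at 20 weeks, WT replicates 1 or 3 or AIM-KO replicates 1, 2 or 3, no member was called.

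**Figure D4:**
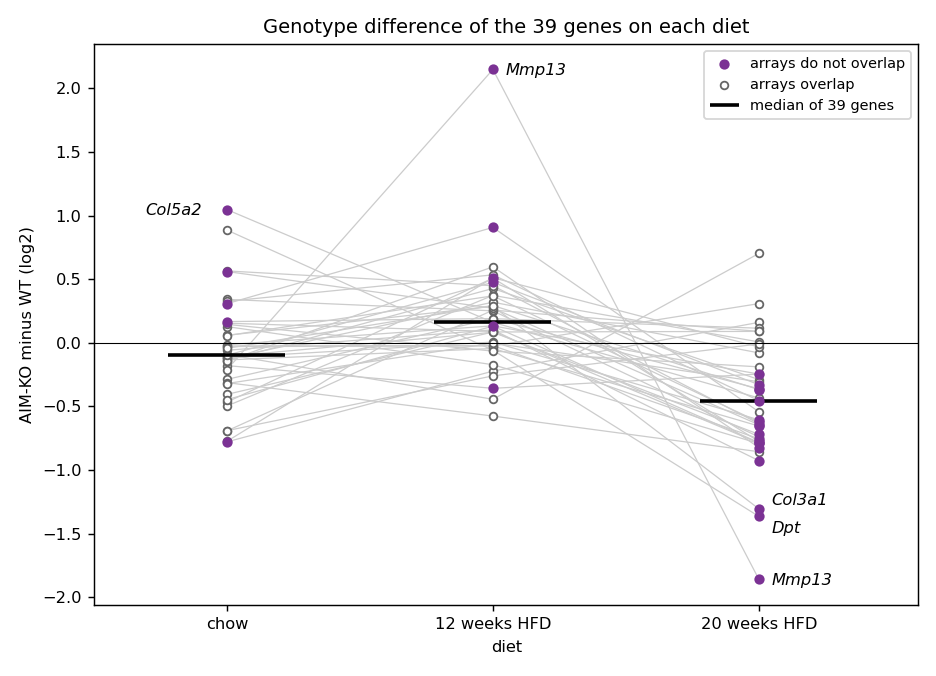
AIM-KO minus WT (log2, vertical axis) of each of the 39 genes on chow and at 12 and 20 weeks of HFD (horizontal axis), with a grey line per gene, filled points where the arrays of the genotypes do not overlap and a bar at the median. The median is -0.10 on chow, 0.16 at 12 weeks and -0.45 at 20 weeks, where 19 filled points lie below 0.

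The difference between the genotypes in their change from chow was tested as an interaction, and no member was called at either time, where 0.00681% of all genes were at 12 weeks and 0% at 20 weeks. At an unadjusted p under 0.05 there were 6 members at 12 weeks (15.4%, against 9.44% of all genes) and 17 at 20 weeks (43.6%, against 10.2%). Timp3 (-1.20 ± 0.25, adjusted p = 0.16), Col5a2 (-1.48 ± 0.32, adjusted p = 0.16) and Ccdc80 (-0.94 ± 0.21, adjusted p = 0.17) had the smallest p at 20 weeks, each with the smaller change in AIM-KO. Without the high-Xist WT array 4 members were called there: Col5a2 (-1.61, adjusted p = 0.0185), Ccdc80 (-1.03, adjusted p = 0.0235), Timp3 (-1.23, adjusted p = 0.0271) and Col3a1 (-1.53, adjusted p = 0.0411). In that fit 2.25% of all genes were called, against 0% with all arrays. With the term for high Xist none was, and the median over the members was -0.26 in place of -0.49. For Col5a2 and Timp3 the AIM-KO arrays were above the WT arrays on chow, where the differences were 1.05 and 0.56 and neither was called.

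Genes that make and process collagen were listed apart from the 42. Of 17 such genes 3 were higher in WT at 12 weeks, 6 in WT at 20 weeks, 6 in AIM-KO at 12 weeks and 2 in AIM-KO at 20 weeks, with medians of 0.25, 0.35, 0.30 and 0.20. These are 17.6%, 35.3%, 35.3% and 11.8%, against 3.52%, 8.72%, 11.4% and 4.29% of all genes called higher. Serpinh1, the collagen chaperone HSP47, rose by 0.75 and 0.91 in WT and 1.24 and 1.12 in AIM-KO, and Pcolce, which speeds the trimming of procollagen, by 0.64 and 1.30 in WT and 1.23 and 0.90 in AIM-KO. Plod2, a lysyl hydroxylase of collagen, rose in WT by 1.56 and 2.27, from a chow mean of 1.63, and was not called in AIM-KO, where the chow mean was 8.23. The differences between the genotypes in these changes were not called (-1.27, adjusted p = 0.434, and -2.01, adjusted p = 0.202), nor was that on chow (1.16, adjusted p = 0.409). Of 14 other collagen genes, Col16a1 rose (0.72) and Col5a3 fell (-0.87) in WT at 20 weeks, and no other was called in these comparisons. That is 14.3% of the list at 20 weeks in WT, where 14.5% of all genes were called, so the share was at the background.

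Other matrix glycoproteins were called higher for 1, 11, 7 and 5 of 29 genes in WT at 12 and 20 and AIM-KO at 12 and 20 weeks. These are 3.45%, 37.9%, 24.1% and 17.2%, against 3.52%, 8.72%, 11.4% and 4.29% of all genes, so the first was at the background. Nid1, a basement membrane linker, rose by 1.62 ± 0.28 in WT at 20 weeks and 2.42 ± 0.28 in AIM-KO at 12 weeks and fell by 1.71 ± 0.28 between 12 and 20 weeks in AIM-KO. Smoc2 and Fbln5, both matrix-binding proteins, rose in WT at 20 weeks by 1.96 and 1.87. Omd fell in AIM-KO at 20 weeks (-2.44 ± 0.64, adjusted p = 0.0268), the 1 gene of this list called lower than chow. That is 1 of 29, where 2.67% of all genes were called lower, so the count was near the background. Omd had a mean of 43.83 and an SD of 32.72 on AIM-KO chow, and the 20-week arrays were all high-Xist arrays.

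Among 14 other proteases and inhibitors, Mmp12, the macrophage elastase, had chow means of 3.17 in WT and 2.07 in AIM-KO, below the pseudocount, so the size of its changes from chow depends on it. It rose by 2.81 and 4.38 in WT and by 4.69 and 2.05 in AIM-KO, fell by 2.63 between 12 and 20 weeks in AIM-KO (adjusted p = 0.00469), and was lower in AIM-KO than in WT at 20 weeks by 2.55 ± 0.43 (-2.55, adjusted p = 0.0263). Plat, a plasminogen activator, rose in WT (1.05 and 1.76) and in AIM-KO at 12 weeks (1.30).

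Of 27 genes of TGF-beta and PDGF signalling, 1, 8, 4 and 2 were called higher than chow in WT at 12 and 20 and AIM-KO at 12 and 20 weeks. These are 3.7%, 29.6%, 14.8% and 7.41%, against 3.52%, 8.72%, 11.4% and 4.29% of all genes, so the share in WT at 12 weeks was near the background. Ccn2, the connective tissue growth factor gene that TGF-beta and mechanical signals induce, rose by 2.91 ± 0.24 in WT at 20 weeks (adjusted p = 3.7e-07) and by 0.94 and 0.91 in AIM-KO at 12 and 20 weeks. It was higher at 20 than at 12 weeks in WT (2.27 ± 0.24, adjusted p = 2.2e-04) and lower in AIM-KO than in WT at 20 weeks (-1.35 ± 0.24, adjusted p = 0.0304). These genotype differences of Mmp12 and Ccn2 at 20 weeks rest on the same high-Xist arrays. Pdgfd, a ligand of the PDGF beta receptor, rose in WT at 20 weeks (2.16), and Pdgfc, a ligand of the alpha receptor, in AIM-KO at 12 weeks (1.36). Of 11 receptors for collagen and fibronectin, Ddr1, a collagen receptor kinase, rose in WT at 20 weeks (2.67) and in AIM-KO at both times (2.49 and 1.82), and Cd44, the hyaluronan receptor, in WT at both times (0.95 and 1.49) and in AIM-KO at 12 weeks (1.77). Among 9 contractile genes Tagln, a smooth muscle protein, rose in all 4 comparisons by 1.92, 2.51, 2.27 and 2.41.

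**Figure D5:**
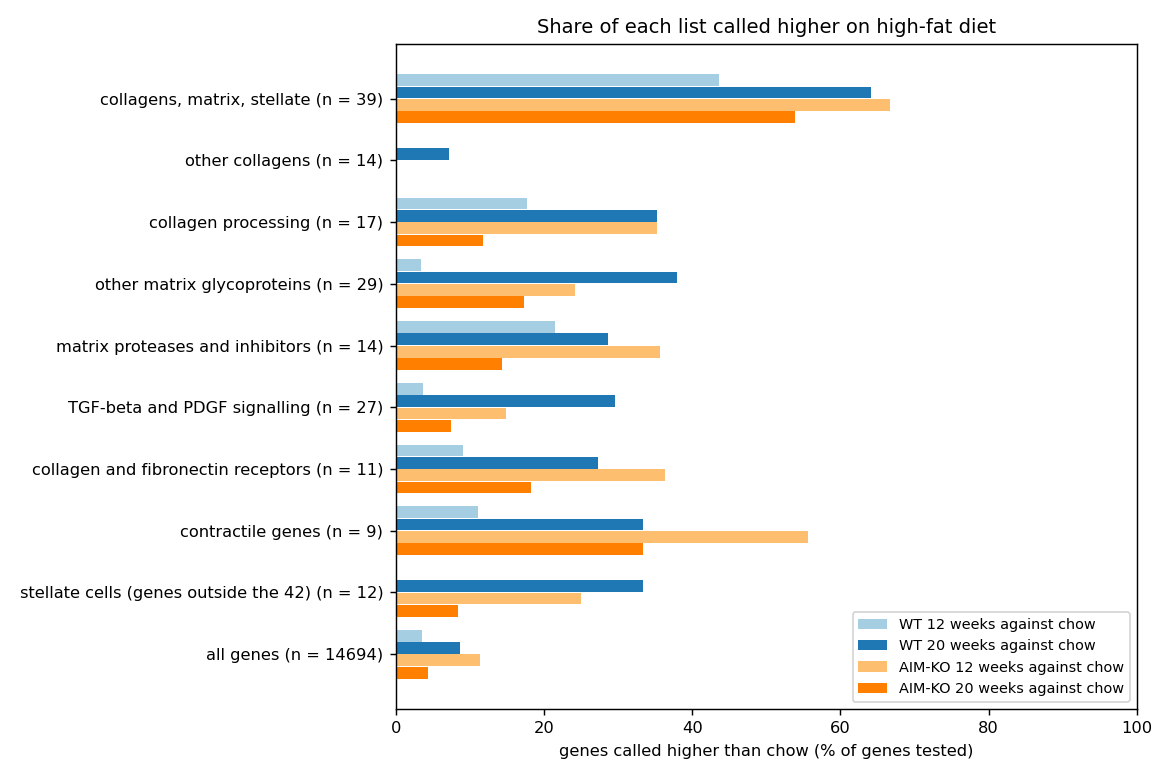
Percent of tested genes called higher than chow (horizontal axis, 0 to 100%) in each fixed list (vertical axis, with the number tested), in 4 comparisons shown as bars; the bottom bars are all 14694 genes. Of the matrix and stellate cell genes 43.6% were called in WT at 12 weeks and 66.7% in AIM-KO at 12 weeks, against 3.52% and 11.4% of all genes.

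Markers of the cells that a liver sample holds moved beside the matrix genes, and their part in the results was not tested. Of 12 measured stellate cell markers outside the 42 genes, none was called in WT at 12 weeks, 4 in WT at 20 weeks, 3 in AIM-KO at 12 weeks and 1 in AIM-KO at 20 weeks, all higher. These are 0%, 33.3%, 25% and 8.33%, against 3.52%, 8.72%, 11.4% and 4.29% of all genes called higher. The last is a single gene. Lrat, the enzyme that stores vitamin A as esters, rose by 0.93, 1.12 and 0.70 in the last 3, Rgs5, a pericyte gene, by 1.42 and 1.32 in WT at 20 and AIM-KO at 12 weeks, and Cygb by 0.91 and 1.23 there. The list was not uniform. In WT 6 of the 12 changes were positive at 12 weeks (median 0.01) and 9 at 20 weeks (0.38). In AIM-KO 9 were positive at 12 weeks (0.15) and 10 at 20 weeks (0.37). The Hhip mean was 16.7 on WT chow and 4.53 in WT at 12 weeks, a change not called. The summed intensity of these markers was 1318 to 1693 on the chow arrays, 1831 to 1914 in WT and 1967 to 2516 in AIM-KO at 12 weeks, and 2244 to 3659 in WT and 1944 to 2054 in AIM-KO at 20 weeks. Reln, Rgs5 and Ecm1 were the brightest of the 12, and Rgs5 had a mean of 1135 and an SD of 628.8 in WT at 20 weeks.

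Of 13 macrophage markers, 1 was called higher in WT at 12 weeks, 7 in WT at 20 weeks, 8 in AIM-KO at 12 weeks and none in AIM-KO at 20 weeks (6.96% of all genes were called there in either direction). These are 7.69%, 53.8%, 61.5% and 0%, against 3.52%, 8.72%, 11.4% and 4.29% of all genes called higher. Their summed intensity was 2821 to 3366 on chow, 3265 to 4678 and 4583 to 5452 in WT, and 4479 to 5487 and 3260 to 4264 in AIM-KO. At 20 weeks AIM-KO thus lay below WT for the macrophage markers as it did for the matrix genes, with a median difference of -0.46 and none called. Of 12 hepatocyte markers, 9 were called lower in AIM-KO at 12 weeks, 3 in WT at 20 weeks, 1 in WT at 12 weeks and none in AIM-KO at 20 weeks. These are 75%, 25%, 8.33% and 0%, against 6.78%, 5.77%, 1.63% and 2.67% of all genes called lower. Their summed intensity was 83380 to 102900 on chow and 63970 to 71500 in AIM-KO at 12 weeks, the lowest group. Of 12 endothelial markers, 5 (41.7%) were called higher in AIM-KO at 12 weeks, against 11.4% of all genes. In WT at 12 and 20 weeks and in AIM-KO at 20 weeks 2 (16.7%) were, against 3.52%, 8.72% and 4.29% of all genes. Of 7 tested markers of portal fibroblasts and mesothelium, 1 (14.3%) was called higher in WT at 12 and AIM-KO at 20 weeks. In WT at 20 and AIM-KO at 12 weeks 2 (28.6%) were, and Gas6 was called in all 4. Of all genes 3.52% and 4.29%, and 8.72% and 11.4%, were called higher in the same order. Pi16, Gli1, Upk3b and Wt1 did not pass the filter on dim values. The summed intensity of the 11 portal fibroblast and mesothelium markers, with those 4 included, was 202.1 to 262.0 on chow, 322.3 to 641.2 and 601.9 to 868.7 in WT, and 589.1 to 916.5 and 681.4 to 945.8 in AIM-KO. The rise of this sum was mostly that of Gas6. Its mean was 137 on WT chow and 107.1 on AIM-KO chow, 341.6 and 561.9 in WT, and 614.9 and 678.2 in AIM-KO. The means of Entpd2 and Upk1b, the next brightest, were at most 76.43 and 41.4. None of 5 cholangiocyte markers was called.

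Other probe sets of the called members mostly gave the same sign. Of 23 such probe sets in WT at 12 weeks 20 had the sign of the brightest one and 10 were called, and the corresponding counts were 26 and 18 of 28 in WT at 20 weeks, 25 and 14 of 26 in AIM-KO at 12 weeks and 23 and 14 of 25 in AIM-KO at 20 weeks. None was called in the opposite direction.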

How the data were processed

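Liver RNA was measured on 18 one-colour Affymetrix mouse arrays, 3 per group, per the labels. The authors deposited linear intensities made with MAS5, as the processing notes of the submitters say. Its version is not stated in what was used here. The 2% trimmed mean was 100 on each array and the median intensity 15 to 21.1. Of 45101 probe sets, 64 were controls, 34945 had 1 gene (34741 matched to the GRCm38.p6 gene table), 932 several and 9160 none. A gene was read from its brightest probe set. Values were taken as log2(intensity + 3.3), which also places the 42 values at 0. Probe sets above the 40th percentile of their array on at least 3 arrays were kept, 14694 genes. All 18 arrays entered 1 limma fit (limma 3.58.1, R 4.3.3) of 6 group means, with a variance trend and Benjamini-Hochberg adjustment over all genes; the median SE of a difference was 0.224. The procedure was tested on simulated data.

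The members and lists were chosen with earlier results of these data known. Values of every array are given for Col1a1, Col1a2, Col3a1, Col4a1, Acta2, Timp1, Tgfb1 and Des, and for 10 further members with the largest called change from chow. Of each other list, up to 3 called genes with the largest change per comparison may be named. Alternatives tried were other pseudocounts, quantile normalization, no or a stricter filter, averaging the probe sets of a gene, the replicate block, only the groups compared, terms for high Xist or the actin ratio, no variance trend, and leaving out each array. Fbn1 and Loxl2 were not analysed here.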

Additional observations from a re-analysis of the deposited data

Results flagged for a closer look

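For 2 members every array of one genotype moved one way from the mean of its own chow arrays and every array of the other moved the opposite way. No share over all genes is given for this rule, so the count cannot be judged against chance. The WT arrays lay within the range of their own chow arrays. For Thbs1 at 12 weeks they read 11.5, 10.5 and 9.7, against 9.6 to 15.4 on chow. For Col15a1 at 20 weeks they read 4.3, 3.5 and 5.9, against 1.8 to 14.3 on chow. In AIM-KO the arrays of these genes also overlapped chow. For Thbs1 at 12 weeks the change was -0.15 in WT and 0.80 in AIM-KO, a difference of 0.95 ± 0.52 (SE, n = 3 arrays per group), with a 95% interval of -0.14 to 2.04 and an adjusted p of 0.59 from limma. For Col15a1 at 20 weeks the change was -0.39 in WT and 0.36 in AIM-KO, a difference of 0.742, and the interaction was not called either. All AIM-KO arrays at 20 weeks are high-Xist arrays, so that difference cannot be told apart from one of sex.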

How the results depend on the processing

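Of 95 called pairs of member and comparison, 63 were called in every fit without 1 array, 47 under every alternative, and 0 changed sign. Between the genotypes at 20 weeks 2 members and 0.157% of all genes were called. There a pseudocount of 0.825 gave 1 member (0.136% of all genes) and the replicate block 5 (0.429%). No dim filter, the mean of probe sets, no variance trend and only the groups compared each gave 0 members (0.0136% to 0.0612%). The terms for high Xist and for the actin ratio also gave 0 (0.0408% and 0.0136%). At 12 weeks a pseudocount of 13.2 gave 1 member in place of 0 (0.129% of all genes, against 0.0749%). The mean of probe sets gave 11 in WT at 12 weeks against chow (4.27%, against 5.14%). Between 20 and 12 weeks in AIM-KO, where 3 members and 3.44% of all genes were called, it gave 1 (2.45%). Only the groups compared gave 9 there (9.18%) and the term for high Xist 0 (0.034%). That term gave 6 in AIM-KO at 20 weeks against chow (1.34%, against 6.96%). The causes were not tested.

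Without 1 array in turn, the counts were 11 to 18 in WT at 12 weeks (11 without its replicate 1), 23 to 27 in WT at 20 weeks, 18 to 25 in AIM-KO at 12 weeks and 13 to 19 in AIM-KO at 20 weeks (13 without its replicate 2). Between times they were 0 to 2 in WT (2 without 12-week replicate 2) and 1 to 3 in AIM-KO. Between genotypes they were 0 on chow, 0 to 1 at 12 weeks (1 without WT replicate 1) and 0 to 10 at 20 weeks. For the interactions they were 0 at 12 weeks and 0 to 4 at 20 weeks. Over all genes, 2.28% to 5.06%, 9.57% to 16.8%, 11.6% to 16% and 3.69% to 6.88% were called against chow, in the same order. Between times these shares were 0.00681% to 0.231% in WT and 0.626% to 2.86% in AIM-KO. Between genotypes they were 0.0204% to 0.0476% on chow, 0.0204% to 0.708% at 12 weeks and 0.0136% to 6.45% at 20 weeks. For the interactions the shares were 0% to 0.157% and 0% to 2.25%.

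Same-numbered samples had correlations of -0.087 to 0.23 between their deviations from the group means. With 3 arrays per group, these values cannot settle whether the replicate numbers pair the samples. With the replicate block, WT between 20 and 12 weeks had 1 member called in place of 0, and 0.0612% of all genes in place of 0.0204%. Precision is limited by having 3 arrays per group, and dim genes near the pseudocount (Dpt and Mmp13 on chow) have compressed changes.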
